A study of Mus musculus with 22 samples.

Results

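Livers of mice that lack both SOCS1 and interferon-gamma (SOCS1-/-IFNg-/-) were compared with livers of mice that lack interferon-gamma alone (IFNg-/-), on the arrays of the series that carry little interferon response. These were the arrays of untreated mice, of mice 4 h after an intraperitoneal injection of 100 µl PBS, and of mice 0.5 h and 48 h after 4 µg of recombinant interferon-gamma in 100 µl. They make 8 of the 22 arrays, 4 of each genotype, and were paired by condition into 4 pairs. These 4 conditions are called resting for short, although only the untreated mice had received no injection. The remaining arrays are 12 taken 1, 2, 4, 12, 16 and 24 h after interferon-gamma, which served as an independent comparison, and 2 taken 12 h after 100 µl PBS, which stayed out of the tests. Every mouse lacked its own Ifng gene, so neither genotype is wild type. The labels name no strain, sex or age and do not say whether a sample was 1 liver or a pool. There was 1 array per genotype and condition. Conditions therefore stood in for replicates. A p-value reflects the spread between these pairs, drawn by limma towards the spread typical of all genes. It does not measure the spread between repeated arrays of 1 condition. Values are log2 expression, a difference is SOCS1-/-IFNg-/- minus IFNg-/-, and errors are standard errors (SE) of the fit over 4 pairs unless stated otherwise.

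SOCS1 is an inducible inhibitor of cytokine signalling. It binds the JAK kinases of activated cytokine receptors, blocks their activity and directs the bound proteins to degradation, and its own gene is switched on by the signals it restrains. Interferon-gamma acts through the kinases JAK1 and JAK2, and SOCS1 also restrains type I interferon, interleukin-4 and common gamma chain cytokines. Mice without SOCS1 die young with an inflamed, fatty liver unless interferon-gamma is removed as well, which is why the deletion is studied here on an Ifng-deficient background.

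Both deleted genes were examined first. Socs1 was 6.73, 6.80, 6.81 and 6.68 on the IFNg-/- arrays in the order untreated, PBS 4 h, IFNg 0.5 h and IFNg 48 h, and 6.68, 6.57, 6.76 and 6.72 on the SOCS1-/-IFNg-/- arrays. The groups overlapped and the difference was -0.07 ± 0.07 (limma, adjusted p = 1). On resting livers its probe set therefore does not tell the genotypes apart, and these 8 arrays give no check of the SOCS1 label. Over all 11 arrays of each genotype Socs1 ran from 6.68 to 9.21 in IFNg-/- livers. In SOCS1-/-IFNg-/- livers it stayed between 6.57 and 7.02. Ifng lay between 2.18 and 2.61 on the 8 arrays, in the lowest part of the array's scale, with a difference of 0.01 ± 0.08 (adjusted p = 1).

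How quiet the arrays were was read from 8 measured interferon-inducible GTPases, a family of cell-autonomous defence proteins that answer interferon-gamma strongly. Their median shift from the untreated array of the same genotype 4 h after PBS was 0.37 for IFNg-/- mice and 0.08 for SOCS1-/-IFNg-/- mice, and 0.13 and 0.12 at 48 h. At 2 h after interferon-gamma the same shifts were 3.43 and 2.95. The shifts at 0.5 h were 0.39 and 0.53. At 24 h, a time left out of the resting set, they were 0.41 and 0.26. This median therefore does not set the 24 h arrays apart from the resting ones. Irf1, an early interferon-gamma target, stood at 6.47 and 6.79 untreated, 7.14 and 7.38 at PBS 4 h, 7.31 and 8.22 at 0.5 h, and 6.83 and 7.03 at 48 h. Neither the PBS 4 h nor the 0.5 h arrays were therefore fully at the untreated level. Results are therefore also given pair by pair.

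The 8 arrays were alike in median and correlation. Their medians lay between 5.67 and 5.71, and pairwise Pearson r across 8251 genes between 0.991 and 0.995. The 17 measured hepatocyte markers had mean levels of 10.8 to 10.9 on the IFNg-/- and 10.7 to 10.9 on the SOCS1-/-IFNg-/- arrays, and albumin stood at 13.2 to 13.3 on all 8, so the tissue label held. The 3' minus 5' difference of the Actb control probe sets, which grows as RNA degrades, was 0.83 to 1.33 and 0.66 to 1.56 in the respective genotypes, and that of Gapdh 0.50 to 0.85 and 0.42 to 0.83. Partners of a pair could differ in it. The widest gaps were 0.87 against 1.20 for Actb at 0.5 h and 0.50 against 0.83 for Gapdh at 48 h. Other pairs lay closer, some in the opposite direction. Xist, which marks female cells, lay between 2.95 and 3.47 on all 22 arrays.

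Across all genes the genotypes were close. At an adjusted p under 0.05 limma called 4 of 8251 genes (0.0485%), with Cd74 higher and Nnt, Dnajb9 and Lpin2 lower in SOCS1-/-IFNg-/- livers. At an unadjusted p under 0.05 there were 105 higher (1.27%) and 193 lower genes (2.34%), 298 together where 413 would be expected with no true difference. The mean difference was above 0 for 4284 genes and below 0 for 3967. The difference had the same sign in all 4 pairs for 337 higher genes (4.08%) and 411 lower genes (4.98%). Large differences were rare: 15 genes were at least 0.5 higher and 15 at least 0.5 lower on average, and 4 genes were at least 0.5 apart in the same direction in every pair, 2 each way. For 54 higher genes (0.654%) and 88 lower genes (1.07%) the values of the genotypes did not overlap. The count of called genes became 2, 6, 8 and 10 when the untreated, PBS 4 h, 0.5 h and 48 h pairs were left out in turn, and 1 when the pairing was ignored.

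The largest called difference was in Nnt, the mitochondrial transhydrogenase that makes NADPH from NADH across the inner membrane. Nnt was 7.38, 7.91, 7.54 and 7.98 on the IFNg-/- arrays, in the order given above, and 6.48, 6.60, 6.53 and 6.76 on the SOCS1-/-IFNg-/- arrays. Every SOCS1-/-IFNg-/- value lay below every IFNg-/- value. The difference was -1.11 ± 0.08 (adjusted p = 0.000589). On the 11 SOCS1-/-IFNg-/- arrays of the whole series Nnt stayed between 6.48 and 6.92, while the 11 IFNg-/- arrays ran from 6.69 to 7.98. In the 6 pairs 1 to 24 h after interferon-gamma the mean difference was -0.58 ± 0.13 (n = 6 pairs, adjusted p = 0.28), lower in 5 of the 6, and the PBS 12 h pair differed by -0.98. Nnt is known to differ between C57BL/6 substrains. Strain and SOCS1 genotype cannot be told apart here, since the labels give no strain.

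**Figure D1:**
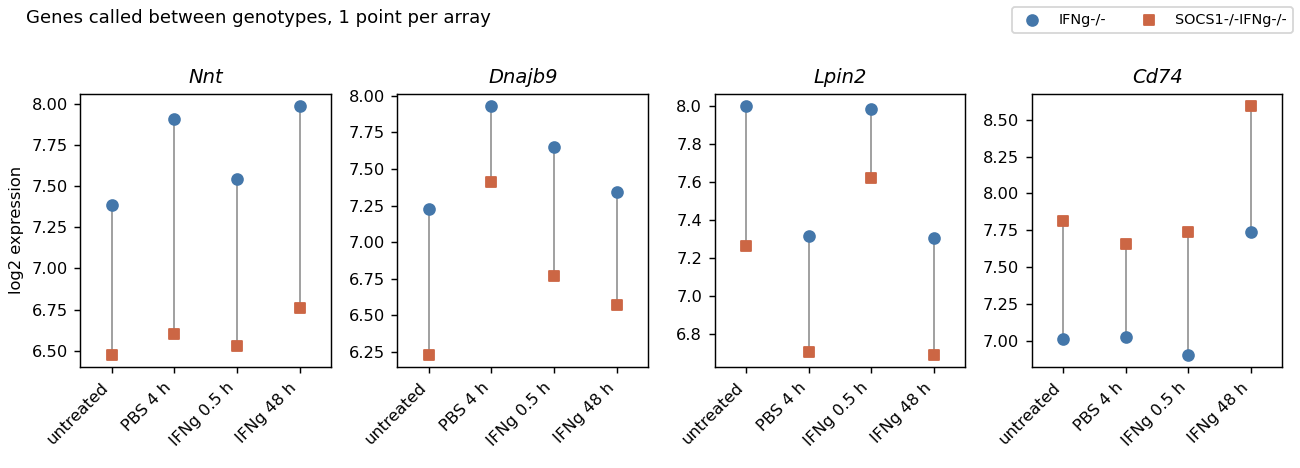
Log2 expression of the 4 called genes on each of the 8 arrays, with 1 point per array, circles for IFNg-/- and squares for SOCS1-/-IFNg-/- livers, and a grey line joining the arrays of a condition. Each panel has its own vertical range. All 4 Nnt squares (6.48 to 6.76) lie below all circles (7.38 to 7.98), whereas in Dnajb9, Lpin2 and Cd74 the genotypes separate within each condition and overlap across conditions.

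Dnajb9 encodes ERdj4, a co-chaperone of the endoplasmic reticulum (ER) that helps clear misfolded proteins and is induced by the unfolded protein response. Its levels were 7.23, 7.93, 7.65 and 7.34 in IFNg-/- livers, against 6.23, 7.41, 6.77 and 6.57 in SOCS1-/-IFNg-/- livers. The SOCS1-/-IFNg-/- array was the lower one in each pair, though the PBS 4 h value of 7.41 exceeded 2 of the IFNg-/- values. Dnajb9 differed by -0.79 ± 0.09 (adjusted p = 0.00771), and a second, dimmer probe set also was lower in all 4 pairs, at -1.35 to -0.76. After interferon-gamma the mean difference was -0.14 ± 0.17 (n = 6 pairs, adjusted p = 0.935), and in the PBS 12 h pair it was 0.57, in the opposite direction. Without the untreated pair the call was lost, at -0.72 (adjusted p = 0.0662).

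Lpin2, one of the lipins, which turn phosphatidate into diacylglycerol for triglyceride synthesis, was 8.00, 7.32, 7.98 and 7.31 in IFNg-/- livers. In SOCS1-/-IFNg-/- livers it was 7.26, 6.71, 7.62 and 6.69. Its level moved with condition in both genotypes, high untreated and at 0.5 h and low at PBS 4 h and 48 h, with the SOCS1-/-IFNg-/- array below its partner each time. The difference was -0.58 ± 0.08 (adjusted p = 0.0449), close to the threshold, and the call was lost without the untreated, the PBS 4 h or the 48 h pair (adjusted p = 0.512, 0.138 and 0.0844). The mean over its probe sets differed by -0.32 (adjusted p = 0.589), since a very dim second probe set ran from -0.26 to 0.07.

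The next lower genes by the size of their smallest pair difference did not pass the test. Ctse, the endosomal aspartic protease cathepsin E, was 9.39, 9.43, 9.73 and 9.22 in IFNg-/- livers, against 8.33, 7.76, 8.92 and 8.84 in SOCS1-/-IFNg-/- livers, so the groups did not overlap. It differed by -0.98 ± 0.16 (adjusted p = 0.102). On the independent arrays after interferon-gamma Ctse differed by -0.97 ± 0.12 and passed the test there (n = 6 pairs, adjusted p = 0.0491), and the PBS 12 h pair differed by -2.16. Across all 11 pairs the sign was the same. A second probe set of similar brightness was also lower in all 4 resting pairs, at -1.67 to -0.31. Another, dim probe set (mean level 4.06, against 8.95 and 8.89) did not follow, at -0.09 to 0.15. The probe sets listed for Ctse thus disagreed. Whether the bright ones measure Ctse alone was not tested.

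Cyp4a12b belongs to a male-biased family of liver cytochromes that hydroxylate arachidonic acid. It was nearly constant within a genotype, at 10.41 to 10.54 on the 4 IFNg-/- arrays and 9.92 to 10.12 on the 4 SOCS1-/-IFNg-/- arrays. The groups did not overlap, and the difference of -0.49 ± 0.08 missed the threshold (adjusted p = 0.0779). After interferon-gamma it was again -0.49 ± 0.08 (n = 6 pairs, adjusted p = 0.143). Its near-identical relative Cyp4a12a may share this probe set's signal. Of 8 measured male-biased liver genes, 7 had a lower mean and 2 were lower in all 4 pairs, with a median of -0.07 against 0.00 over all genes. The list had 0 calls, and the 11 female-biased genes had a median of 0.01.

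Eci2, an isomerase of unsaturated fatty acid oxidation, differed by -0.34 ± 0.07 (adjusted p = 0.39), with pair differences of -0.36, -0.45, -0.26 and -0.27. Slc38a2, a neutral amino acid transporter, differed by -0.54 ± 0.13 (adjusted p = 0.573). Its untreated pair, at -1.17, carried most of that mean, and the other pairs lay between -0.27 and -0.36. Dimmer probe sets differed by -0.05, -0.07 and 0.07 on average. After interferon-gamma the Slc38a2 difference was 0.02 ± 0.22 (n = 6 pairs), and in the PBS 12 h pair it was 0.55.

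On the higher side the called gene was Cd74, the invariant chain that escorts MHC class II molecules through the cell. Cd74 was 7.01, 7.02, 6.91 and 7.74 in IFNg-/- livers, against 7.82, 7.66, 7.74 and 8.59 in SOCS1-/-IFNg-/- livers. The 48 h array was the highest of each genotype, and the IFNg-/- value there lay within the range of the other genotype, so the groups overlapped across conditions but not within any. The 4 pair differences, 0.80, 0.63, 0.83 and 0.85, had a mean of 0.78 ± 0.07 (adjusted p = 0.00253). In the arrays after interferon-gamma Cd74 was higher in 6 of 6 pairs, by 1.04 ± 0.15 (n = 6 pairs, adjusted p = 0.0969), and in the PBS 12 h pair by 0.83. The resting difference minus that after interferon-gamma was -0.26 ± 0.20.

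The class II presentation genes as a list lay on the same side. All 14 measured members had a higher mean in SOCS1-/-IFNg-/- livers, 6 were higher in all 4 pairs, where 4.08% of all genes were, and 1 was called. The median difference was 0.17, against 0.00 over all genes, and 0.16 in the pairs after interferon-gamma. H2-Aa, the class II alpha chain, was 6.60, 6.81, 6.43 and 6.98 in IFNg-/- livers, against 7.31, 7.02, 7.11 and 7.49 in SOCS1-/-IFNg-/- livers, without overlap. H2-Aa differed by 0.53 ± 0.09 (adjusted p = 0.123), and after interferon-gamma by 0.72 ± 0.12 (adjusted p = 0.143). Its partner chain H2-Ab1 differed by 0.32 ± 0.09 (adjusted p = 0.754), with only 0.03 in the PBS 4 h pair, and H2-DMb1, a peptide-loading subunit, by 0.24 ± 0.08 (adjusted p = 0.996). Ciita, the master regulator of class II transcription, a neighbour of Socs1 on its chromosome and chosen here after its value was seen, differed by 0.07 ± 0.08 (adjusted p = 1), with a negative PBS 4 h pair.

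Class II genes are expressed mainly by antigen-presenting cells, and in bulk liver more such cells and more RNA per cell cannot be told apart. Mean levels of 16 measured macrophage and Kupffer cell markers were 6.19 to 6.44 on the IFNg-/- and 6.34 to 6.43 on the SOCS1-/-IFNg-/- arrays. For 10 dendritic cell markers they were 5.61 to 5.65 and 5.56 to 5.75, and for 12 B cell markers 4.91 to 5.0 and 4.93 to 5.04. The median differences were 0.08, 0.05 and 0.04, with 12 of 16, 9 of 10 and 9 of 12 members higher on average and 0 called. The class II median was 0.17. Of the markers, 11 of 16, 3 of 10 and 4 of 12 lay above the median level of all genes. Dim probe sets give little information about small differences, so these medians do not measure cell number. In the PBS 4 h pair the dendritic cell and B cell medians were both -0.07, with 3 of 10 and 4 of 12 members higher. Over all genes the median of that pair was -0.04, with 3407 of 8251 higher, so both lists lay close to the background. The macrophage median in that pair was 0.12, the class II median 0.11 and Cd74 differed by 0.63. The part of these cells in the class II result was not tested.

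**Figure D2:**
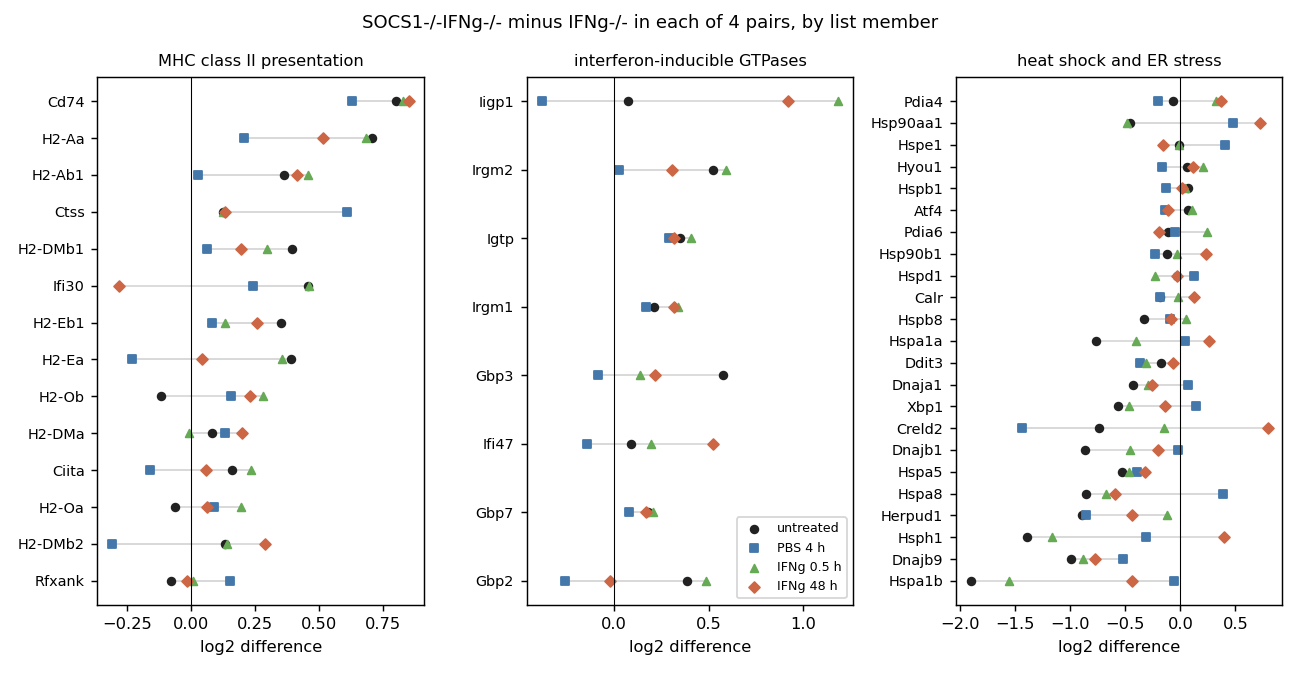
Log2 differences (SOCS1-/-IFNg-/- minus IFNg-/-) of every measured member of 3 lists in the 4 pairs, with 1 symbol per pair and members ordered by mean. Cd74 and H2-Aa lie to the right of 0 in all pairs, the GTPases scatter more and include negative PBS 4 h values, and the stress genes lie mostly to the left, furthest in the untreated and 0.5 h pairs.

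The interferon-inducible GTPases were the second group in which every member had a higher mean. Of the 8 measured members, 8 had a higher mean in SOCS1-/-IFNg-/- livers, 4 were higher in all 4 pairs, and 0 were called; the median difference was 0.23. In the PBS 4 h pair 4 of the 8 were higher and the median was -0.03, against 0.28 untreated, 0.37 at 0.5 h and 0.31 at 48 h. Over all genes the median of the PBS 4 h pair was -0.04, with 3407 of 8251 higher. The promoters of 3 of the members that were higher in all 4 pairs, and of Isg15, an antiviral interferon-stimulated gene, are shown because they carry the interferon-stimulated response element, a short sequence through which interferons are known to act. It was searched as GAAA, 2 free bases and GAAA on both strands of the 250 bases before each start (RefSeq, GRCm38.p6). It occurs in 2.98% of 32851 promoters. Below are the last 120 bases before each gene's first listed start, 5′ to 3′ on the gene's strand, with the element in capitals.
Igtp, chr11:58199436-58199555, plus strand: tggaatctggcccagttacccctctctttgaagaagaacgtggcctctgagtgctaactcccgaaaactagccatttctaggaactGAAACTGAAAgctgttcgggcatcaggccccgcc
Irgm2, chr11:58214857-58214976, plus strand: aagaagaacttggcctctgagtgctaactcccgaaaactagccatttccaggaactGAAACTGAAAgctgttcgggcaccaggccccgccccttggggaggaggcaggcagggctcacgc
Irgm1, chr11:48871421-48871540, minus strand: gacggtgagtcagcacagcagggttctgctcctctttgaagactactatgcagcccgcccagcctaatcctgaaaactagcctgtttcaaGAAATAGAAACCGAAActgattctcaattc
Isg15, chr4:156200819-156200938, minus strand: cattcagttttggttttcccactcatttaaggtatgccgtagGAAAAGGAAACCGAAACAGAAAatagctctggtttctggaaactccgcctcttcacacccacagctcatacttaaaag
Of the 7 measured GTPases in the promoter table, 6 hold the element. It starts 34 bases before the start of Igtp and 64 bases before that of Irgm2, Irgm1 holds 2 overlapping copies, and Isg15 holds 3. A match is a description of the sequence and not evidence that a factor was bound.

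Igtp, also called Irgm3, which guards vacuoles against intracellular parasites, had pair differences of 0.35, 0.29, 0.41 and 0.32. Its levels were 5.72, 5.95, 6.0 and 6.0 in IFNg-/- livers, against 6.07, 6.24, 6.41 and 6.32 in SOCS1-/-IFNg-/- livers, so the groups did not overlap. The difference of 0.34 ± 0.07 did not pass the test (adjusted p = 0.314). After interferon-gamma Igtp differed by 0.74 ± 0.28 (adjusted p = 0.584), a mean over pairs of both signs. The related GTPases Irgm2 and Irgm1 differed by 0.36 ± 0.10 and 0.26 ± 0.07 (adjusted p = 0.738 and 0.754), and Gbp7, a guanylate-binding protein, by 0.16 ± 0.07 (adjusted p = 1). Irgm2 was only 0.03 higher in the PBS 4 h pair.

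Among 17 measured antiviral interferon-stimulated genes, 12 had a higher mean and 0 were called, with a median of 0.14. In all 4 pairs 4 were higher, where 4.08% of all genes were. By pair the median was 0.18 untreated, -0.03 at PBS 4 h, 0.06 at 0.5 h and 0.10 at 48 h. At PBS 4 h 8 of the 17 were higher. Usp18, which removes the ubiquitin-like ISG15 from proteins and is a feedback inhibitor of type I interferon receptors, was 5.48, 5.93, 5.76 and 5.39 in IFNg-/- livers. It was 6.18, 6.13, 6.28 and 6.06 in SOCS1-/-IFNg-/- livers, above every IFNg-/- value. Usp18 differed by 0.52 ± 0.09 (adjusted p = 0.123). Without the PBS 4 h pair, whose difference was 0.20, it passed at 0.63 (adjusted p = 0.0294). It did not pass without the untreated, the 0.5 h or the 48 h pair, at 0.46, 0.52 and 0.47. Isg15 itself differed by 0.28 ± 0.07 (adjusted p = 0.738), with 0.41, 0.19, 0.20 and 0.31 in the pairs, and Irf7, the type I interferon amplifier, by 0.18 ± 0.07 (adjusted p = 1).

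Irf1, a transcription factor induced early by interferon-gamma, was 6.47, 7.14, 7.31 and 6.83 in IFNg-/- livers, against 6.79, 7.38, 8.22 and 7.03 in SOCS1-/-IFNg-/- livers. It was highest in both genotypes at 0.5 h, where the pair differed by 0.90, against 0.20 to 0.32 in the others. The groups overlapped, and the mean difference of 0.42 ± 0.11 did not pass (adjusted p = 0.738). Irf1 was the 1 gene higher in all 4 pairs among 17 measured genes of the interferon-gamma receptor and JAK-STAT pathway, whose median was -0.01. Jak2, chosen here after its value was seen, differed by -0.01 ± 0.07 (adjusted p = 1).

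The other inhibitors had no common direction. Of 12 measured SOCS family members and related feedback inhibitors, 6 had a higher and 6 a lower mean, with a median of -0.01 and 0 called. Socs3, the inhibitor of interleukin-6 signalling, differed by 0.17 ± 0.10 and Socs2, a growth hormone target, by -0.12 ± 0.21, both with adjusted p = 1 and pairs of both signs; both were chosen after their values were seen. Class I loading and immunoproteasome genes had a median of 0.03 (17 measured, 1 higher in all 4 pairs, 0 called). The common gamma chain and interleukin-4 lists, pathways that SOCS1 also restrains, had medians of 0.00 and 0.03 over 14 and 11 measured genes, with 0 called in either.

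Erdr1 and an immunoglobulin gene complete the higher genes named by the size of their smallest pair difference. Erdr1, an erythroid differentiation regulator encoded at the end of the sex chromosomes, was 8.20, 7.65, 8.04 and 7.55 in IFNg-/- livers, against 8.95, 8.96, 10.26 and 8.35 in SOCS1-/-IFNg-/- livers. The groups did not overlap, and the mean of 1.27 ± 0.20 missed the threshold (adjusted p = 0.0779). The 0.5 h pair alone differed by 2.23. Erdr1 passed at 0.95 without that pair and at 1.43 without the 48 h pair (limma, adjusted p = 0.00949 and 0.0388). It did not pass without the untreated or the PBS 4 h pair (adjusted p = 0.0662 and 0.256). A dimmer second probe set did not show it, at -0.16 to 0.30. Igkv6-23, an immunoglobulin kappa variable segment of antibody-producing cells, differed by 0.70 ± 0.16 (adjusted p = 0.443). Its untreated pair differed by 1.47 and the 48 h pair by 0.25, and its probe set may respond to related kappa segments. The 10 measured plasma cell and immunoglobulin genes had a median of 0.04, with 7 higher and 3 lower.

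**Figure D3:**
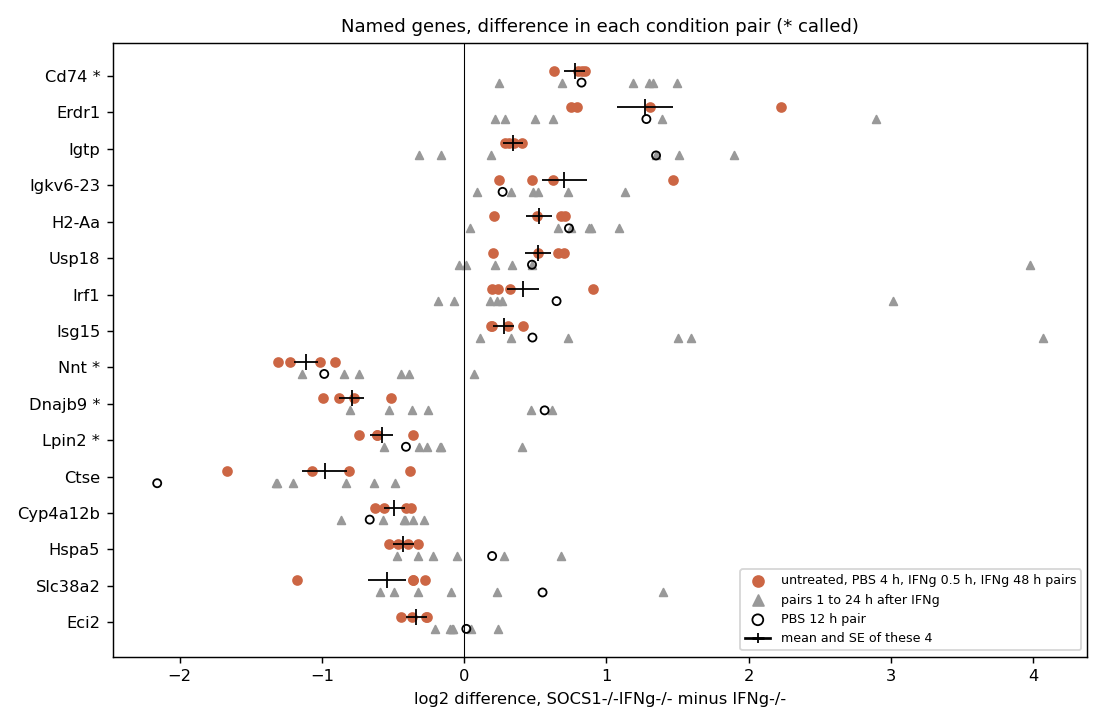
Log2 difference of the 16 genes named by rule in each of the 11 condition pairs (SOCS1-/-IFNg-/- minus IFNg-/-). Filled circles are the 4 resting pairs, the cross their mean with its SE, grey triangles the 6 pairs 1 to 24 h after interferon-gamma and the open circle the PBS 12 h pair; asterisks mark called genes. Cd74, Erdr1, Igkv6-23, H2-Aa, Isg15, Ctse and Cyp4a12b keep their side of 0 in every pair, while the triangles of Dnajb9 and Hspa5 lie on both sides.

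Chaperone and ER stress genes mostly had lower means. Of 23 measured, 18 had a lower mean in SOCS1-/-IFNg-/- livers, 6 were lower in all 4 pairs, where 4.98% of all genes were, 10 were lower at an unadjusted p under 0.05 (2.34% of all genes), and 1, Dnajb9, was called. The median difference was -0.22. By pair it was -0.43 untreated, -0.13 at PBS 4 h, -0.23 at 0.5 h and -0.08 at 48 h, so the untreated pair differed most. After interferon-gamma the list's median was -0.01, and in the PBS 12 h pair 0.05.

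Hspa5, the ER's main chaperone BiP, was 10.46, 10.62, 10.37 and 9.67 in IFNg-/- livers, against 9.93, 10.23, 9.91 and 9.35 in SOCS1-/-IFNg-/- livers. It was lowest at 48 h in both genotypes, and the groups overlapped, but the SOCS1-/-IFNg-/- array was lower in each pair, with differences of -0.53, -0.40, -0.46 and -0.32. The mean difference was -0.43 ± 0.07 (adjusted p = 0.123), against -0.02 ± 0.13 after interferon-gamma. Herpud1, which takes part in ER-associated degradation, was 9.37, 9.82, 9.35 and 8.48 against 8.48, 8.96, 9.22 and 8.04, a difference of -0.58 ± 0.12 (adjusted p = 0.339). The Hspa5 promoter is shown because it carries the classical ER stress response element, searched as CCAAT, 9 free bases and CCACG on both strands and present in 0.113% of promoters. Capitals mark that element, which starts 65 bases before the RefSeq start.
Hspa5, chr2:34771970-34772089, plus strand: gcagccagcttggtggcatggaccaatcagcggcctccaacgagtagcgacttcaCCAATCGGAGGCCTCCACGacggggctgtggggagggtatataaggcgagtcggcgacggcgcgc
Of 20 listed stress genes in the promoter table, 5 hold it, namely Calr, Creld2, Hsp90b1, Hspa5 and Pdia6. In Dnajb9 and Herpud1 those letters are not in the 250 bases searched. Other forms of ER stress element were not searched, so neither promoter is shown to lack one.

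Hspa1b, an inducible HSP70, was 8.16, 6.55, 7.76 and 5.42 in IFNg-/- livers, against 6.26, 6.49, 6.20 and 4.99 in SOCS1-/-IFNg-/- livers. The untreated and 0.5 h IFNg-/- arrays stood high, and these pairs differed by -1.90 and -1.56, whereas the PBS 4 h pair differed by -0.06 and the 48 h pair by -0.44. The mean of -0.99 ± 0.25 did not pass (adjusted p = 0.573), and the near-identical Hspa1a may share its signal. Dnajb1 and Hsph1, co-chaperones of HSP70 chosen here after their values were seen, were also furthest apart untreated and at 0.5 h. The pair differences were -0.87, -0.02, -0.46 and -0.20 for Dnajb1 and -1.39, -0.31, -1.16 and 0.39 for Hsph1, whose 48 h pair thus had the opposite sign.

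Genes of fatty acid oxidation and PPAR-alpha targets lay on both sides of 0. Of 23 measured, 14 had a lower mean, 4 were lower in all 4 pairs and 0 were called, with a median of -0.06. Ppara, the receptor that switches on fatty acid oxidation in fasting, was 9.0, 9.41, 8.90 and 9.04 in IFNg-/- livers, against 8.65, 8.34, 8.65 and 8.70 in SOCS1-/-IFNg-/- livers, without overlap. Ppara differed by -0.50 ± 0.12 (adjusted p = 0.573), and by -0.58 ± 0.27 after interferon-gamma. Acaa1b, a peroxisomal thiolase, Cpt1a, which admits fatty acids to mitochondria, and Plin2, a lipid droplet coat, differed by -0.41 ± 0.10, -0.37 ± 0.11 and -0.35 ± 0.11 (adjusted p = 0.573, 0.827 and 0.901). In Ppara, Cpt1a and Plin2 the PBS 4 h pair was the furthest apart, at -1.08, -0.81 and -0.81. The PPAR-alpha targets Cyp4a14 and Cyp4a10, fatty acid omega-hydroxylases chosen here after their values were seen, had the largest differences of the list in the other direction, at 0.55 ± 0.31 and 0.49 ± 0.30 (adjusted p = 1 for both). Their untreated and PBS 4 h pairs were at 1.28 to 1.60, and their 0.5 h pairs at -0.31 and -0.91.

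Sterol and fatty acid synthesis genes lay on different sides of 0 in different pairs. Of 17 measured cholesterol synthesis genes, 14 had a higher mean, yet none was higher in all 4 pairs: 15, 15 and 13 members were higher untreated, at PBS 4 h and at 0.5 h, and 0 at 48 h. The list's pair medians were 0.24, 0.69, 0.17 and -0.35. Fdps, farnesyl diphosphate synthase, was 10.66, 9.79, 10.27 and 11.01 in IFNg-/- livers, against 11.11, 10.87, 11.26 and 10.52 in SOCS1-/-IFNg-/- livers, a mean difference of 0.51 ± 0.20 (adjusted p = 1). The 15 fatty acid and triglyceride synthesis genes had a median of 0.80 in the PBS 4 h pair and between -0.11 and -0.03 in the other 3. Pck1, which sets the pace of gluconeogenesis, differed by -0.57 ± 0.14 (adjusted p = 0.573), with -0.49, -1.13, -0.01 and -0.63 in the pairs; the 19 measured gluconeogenic and fasting genes had a median of -0.01 and 0 calls.

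**Figure D4:**
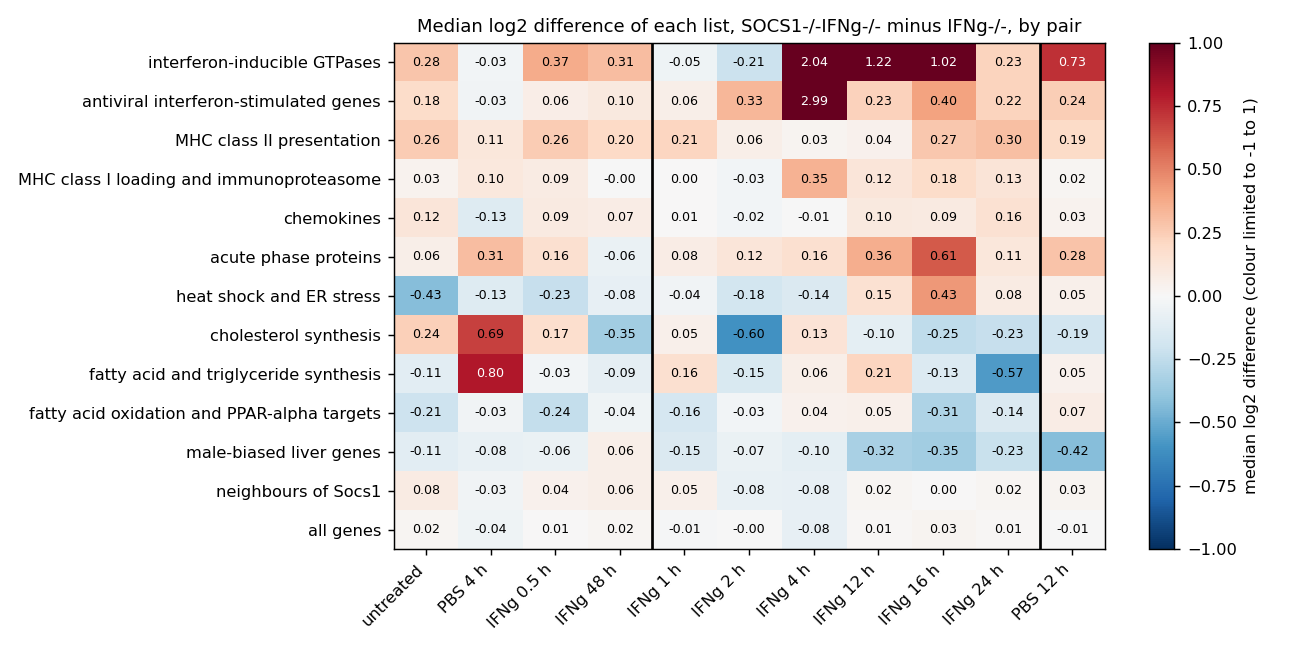
Median log2 difference (SOCS1-/-IFNg-/- minus IFNg-/-) of 12 lists and of all genes in each of the 11 condition pairs, with the value printed in each cell and colour limited to -1 to 1. Vertical lines separate the 4 resting pairs, the 6 pairs 1 to 24 h after interferon-gamma and the PBS 12 h pair. Class II medians are above 0 in every pair, stress medians are below 0 in the 4 resting pairs and up to 0.43 at 16 h, and the cholesterol medians change sign among the resting pairs.

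Acute phase genes, which the liver makes in response to interleukin-6 and related signals, had a higher mean in 19 of 25 measured members and a median of 0.11, with 3 higher in all 4 pairs and 0 called. Their pair medians were 0.06, 0.31, 0.16 and -0.06. Apcs, serum amyloid P, was 7.56, 8.02, 7.61 and 8.23 in IFNg-/- livers, against 8.04, 9.23, 7.92 and 8.36 in SOCS1-/-IFNg-/- livers, with a difference of 0.53 ± 0.14 (adjusted p = 0.754). The metallothionein Mt1, a metal-binding stress protein, was 6.93, 8.02, 7.05 and 8.85 against 7.96, 11.09, 8.58 and 7.99. The PBS 4 h pair differed by 3.07 and the 48 h pair by -0.87, and the mean of 1.19 ± 0.44 did not pass (adjusted p = 1). Mt2 had the same PBS 4 h difference of 3.07.

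Of 23 measured chemokines, 14 had a higher mean, 2 were higher in all 4 pairs and 0 were called, and the median was 0.03. Cxcl1, a neutrophil attractant, was 5.42, 8.40, 5.89 and 5.65 in IFNg-/- livers, against 6.39, 9.10, 9.66 and 5.69 in SOCS1-/-IFNg-/- livers. It was high in both livers 4 h after PBS and at 0.5 h in the SOCS1-/-IFNg-/- liver alone, where the pair differed by 3.77. The mean of 1.37 ± 0.45 rests on that pair and did not pass (adjusted p = 0.99). In the PBS 12 h pair Cxcl1 differed by 2.67. The macrophage chemokine Ccl9 differed by 0.25 ± 0.09 and the monocyte attractant Ccl2 by 0.23 ± 0.09 (adjusted p = 1 for both).

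The immune cell lists had medians close to 0. The 13 measured T cell markers had a median difference of 0.01, with mean levels of 5.25 to 5.30 and 5.21 to 5.33. The 12 natural killer and cytotoxic markers had a median of 0.02 and the 15 neutrophil and monocyte markers one of 0.04, again with 0 called. Most of these markers were dim: 5 of 13, 1 of 12 and 3 of 15 lay above the median level of all genes. Their medians therefore say little about small differences in cell number. The endothelial, stellate cell and hepatocyte lists had medians of 0.04, -0.02 and -0.01.

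The measured genes nearest to Socs1 on its chromosome, 40 in all, were examined as a list. Of these 27 had a higher and 13 a lower mean, 2 were higher and 1 lower in all 4 pairs, and 0 were called. Over all genes 4284 of 8251 had a higher mean, and 4.08% were higher and 4.98% lower in all 4 pairs. In the untreated pair 32 of the 40 were higher, at PBS 4 h 14, and at 0.5 h and 48 h 25 each. Over all genes 4620 of 8251 were higher untreated and 3407 at PBS 4 h. Clec16a, a regulator of mitophagy and the nearest measured gene on one side, differed by 0.20 ± 0.07 (adjusted p = 1), and by 0.27 ± 0.05 after interferon-gamma (adjusted p = 0.229).

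The same contrast in the 12 arrays 1 to 24 h after interferon-gamma called 2 of 8251 genes (0.0242%), Plac8 higher and Ctse lower, with 584 at an unadjusted p under 0.05. Whether the genotype difference itself changed was tested on the 10 within-pair differences. Limma called 0 genes (0%), with 257 at an unadjusted p under 0.05 and a smallest adjusted p of 0.999848. For Nnt the resting difference minus the responding one was -0.53 ± 0.19, for Dnajb9 -0.65 ± 0.24, for Hspa5 -0.41 ± 0.18 and for Isg15 -1.11 ± 0.58. No gene was thus shown to differ between genotypes in the 4 conditions called resting alone. The responding pairs span times at which the genotypes stood far apart and times at which they did not.

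The 4 resting pairs had little in common across genes. Over all 8251 genes, the differences of the untreated and 0.5 h pairs correlated with a Pearson r of 0.24, those of the PBS 4 h and 48 h pairs with -0.31, and the other 4 combinations with r between -0.05 and 0.08. Genes are not independent replicates, so these values describe the pairs only. The PBS 4 h pair was the widest, with an SD over genes of 0.23 and 36 genes at least 1 apart, and the untreated pair the narrowest by SD, with 0.17 and 20 genes.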

How the data were processed

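RNA from mouse liver was measured on Affymetrix expression arrays. The deposited values are log2 expression per probe set, already normalized between arrays by the authors; the submitters' processing notes name affy. How background, normalization and summary were done is not given in the sources used here. Of 12488 probe sets, 66 controls were left out and 10833 carried 1 gene symbol, 396 several and 1193 none; the last 2 kinds were not tested. The probe set with the highest mean stood for each of 8251 genes. The number of arrays limits the precision.

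Genotypes were compared with limma 3.58.1 in R 4.3.3 (lmFit, eBayes), with condition as a block. The fit had 3 residual and 7.47 prior degrees of freedom, the latter from the spread over all genes. Adjustment was by Benjamini-Hochberg over all genes, with a threshold of 0.05. The same fit was made on the 6 pairs after interferon-gamma, and resting minus responding on the within-pair differences. The fit was tested on simulated data. Of 814 genes on 26 pathway and 16 cell type lists, 604 were measured. Lists are described by counts and medians, with no set test.

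The text names Socs1 and Ifng, then the called genes, filled up to 8 in each direction with genes of 1 sign in all 4 pairs by their smallest pair difference, up to 4 members of each list by p, and neighbours of Socs1. The members and lists were chosen with earlier results of these data known. Alternatives were array weights, a trended robust prior, renormalization, median centring, a filter on low genes, probe set means, no block, each pair left out, and other sets of pairs.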

Additional observations from a re-analysis of the deposited data

Results flagged for a closer look

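In 36 groups of 4 arrays (18 genes in each genotype) the highest and lowest arrays were compared with the rest by Dixon's criterion. Among repeated arrays of 1 condition chance marks about 1 group in 20. The 4 arrays of a group here were of different conditions, so a mark can reflect condition and that rate does not apply. The criterion marked 4 groups. Cd74 was far above the other arrays of its genotype at 48 h, with 7.739 in IFNg-/- and 8.591 in SOCS1-/-IFNg-/- livers. Igtp was far below the others on the untreated IFNg-/- array, at 5.716, and Igkv6-23 far above on the untreated SOCS1-/-IFNg-/- array, at 5.875. The PBS 12 h arrays, which entered no test, had median GTPase shifts from untreated of 0.917 in IFNg-/- and 1.359 in SOCS1-/-IFNg-/- livers, above the 0.37 and 0.08 of the PBS 4 h arrays.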

How the results depend on the processing

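All 4 called genes kept their direction under the 14 alternatives, and only Nnt was called under every one of them. The number of genes called between genotypes in resting livers, 4 as reported, was 13 with array weights, 2 with arrays centred on their medians, 1 without the replicate block (condition pairs ignored) and 1 with the spread taken from all 10 pairs. It ranged from 2 to 10 when 1 pair was left out, with 2 without the untreated, 8 without the 0.5 h and 10 without the 48 h pair. With the untreated and PBS 4 h pairs alone it was 92, in a fit with 1 residual degree of freedom in which all genes shared 1 spread. Cd74 was not called without the block or with the 10-pair spread, and Dnajb9 also not after centring, without the untreated pair or with the PBS 12 h pair added; Lpin2 was called in 5 of the 14. In the pairs after interferon-gamma, 2 calls became 0 with array weights, quantile normalization, centring, the filter, probe set means or no block, and 0 to 2 when 1 pair was left out. The comparison of resting with responding pairs called 0 genes under all 16 alternatives. The causes were not tested.

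With 4 pairs of different conditions and 1 array each, a genotype difference that varies with condition enters the error. Probe sets low on the scale, such as Ifng, give little information about small differences.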
